A study of Homo sapiens with 6 samples.

Results

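CES3, PTX3, SPNS2 and UNC5C are 4 protein-coding genes, of 19974 on chromosomes 1 to 22 and X, that carried no listed H3K4me3 peak in control K562 cells and carried H3K4me3 peaks after a hairpin against Staufen 2. They were chosen from the peak lists described here. The H3K4me3 ranking took genes with no control H3K4me3 peak within 1 kb of either end. Among those genes, CES3, PTX3 and SPNS2 had the strongest H3K4me3 peaks near a gene end that overlapped no control peak. UNC5C had one of the widest increases of H3K4me2 around its ends. The values that chose the 4 genes are given as a description and support nothing further.

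Chromatin immunoprecipitation with sequencing (ChIP-seq) mapped trimethylated and dimethylated lysine 4 of histone H3 (H3K4me3 and H3K4me2) in K562, an established human line from chronic myeloid leukaemia in blast crisis. The shControl cells carried a control short hairpin RNA and the shStau2 cells one directed at Stau2, the gene symbol of the double-stranded RNA-binding protein Staufen 2, and the labels name no other treatment, allele or time. The level of Staufen 2 itself was not measured in these files. There was 1 library for each mark and hairpin and 1 input for each hairpin, so no difference below has a replicate, a spread or a test. K562 is a single cell line, and whether each hairpin culture was 1 clone or a pool is not stated in the labels. H3K4me3 marks mostly the starts of transcribed genes. H3K4me2 covers gene starts and enhancers alike, and a start that carries H3K4me2 without H3K4me3 is often weakly transcribed or poised.

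After duplicate removal, 30744332 tags remained for H3K4me3 in shControl cells and 26320758 in shStau2 cells, and 26221869 and 27979370 for H3K4me2. The shStau2 H3K4me3 library had the most redundant tags, 13% beside 6 to 8% in the other 3. Of 9 marker genes of K562, 9 had H3K4me3 in both lists. Lists of 3 markers each gave 1 for T cells, 2 for B cells, 1 for liver, 1 for fibroblasts, 1 for endothelium and 2 for neurons in both lists. The liver marker ALB (2 new peaks of up to 9.58-fold) and the fibroblast marker DCN (1 of 6.21-fold) had H3K4me3 under shStau2 only, as the 4 genes did. These counts use the same windows, which can hold peaks of neighbouring genes. Enrichment over input was higher under shStau2 in the whole H3K4me3 list. At 15552 peaks that matched 1 to 1, the median fold enrichment, which is the tag pileup at the summit over the local background, was 14.99 in the shControl list but 30.97 in the shStau2 list, and their quotient was 2.07. For H3K4me2 the quotient was 1.20, at 40029 peaks. A peak missing from a list lay below the peak caller's threshold, and this does not show that the mark was absent.

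The 4 genes have unrelated products. CES3 encodes a carboxylesterase, an enzyme of the endoplasmic reticulum that hydrolyses esters, and lies on chromosome 16 at 66961266 to 66975149 (hg38). PTX3 encodes long pentraxin 3, a secreted pattern recognition protein of innate immunity that inflammatory signals induce in myeloid and endothelial cells, on chromosome 3 at 157436850 to 157443633. SPNS2 encodes an exporter of sphingosine 1-phosphate, a lipid that guides lymphocyte traffic, on chromosome 17 at 4498881 to 4539035. UNC5C encodes a netrin receptor that mediates repulsion of growing axons and can trigger cell death when no ligand is bound, on chromosome 4 at 95162504 to 95548973. Each gene was examined over its body with 10 kb on each side.

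RefSeq promoters (GRCh38.p14, 250 bases before to 50 bases after the gene start) were matched for PTX3 and UNC5C, and are shown because peaks lay beside the first and over the second. Both are written 5′ to 3′ on the strand of the gene, with CG dinucleotides in capitals. The PTX3 promoter is chr3:157436600-157436899 on the plus strand, and the UNC5C promoter is chr4:95548924-95549223 on the minus strand.
PTX3: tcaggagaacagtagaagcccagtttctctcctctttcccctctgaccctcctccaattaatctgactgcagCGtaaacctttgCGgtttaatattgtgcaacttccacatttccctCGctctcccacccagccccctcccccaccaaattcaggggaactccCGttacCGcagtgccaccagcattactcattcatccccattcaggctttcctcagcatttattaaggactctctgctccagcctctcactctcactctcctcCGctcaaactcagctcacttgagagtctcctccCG
UNC5C: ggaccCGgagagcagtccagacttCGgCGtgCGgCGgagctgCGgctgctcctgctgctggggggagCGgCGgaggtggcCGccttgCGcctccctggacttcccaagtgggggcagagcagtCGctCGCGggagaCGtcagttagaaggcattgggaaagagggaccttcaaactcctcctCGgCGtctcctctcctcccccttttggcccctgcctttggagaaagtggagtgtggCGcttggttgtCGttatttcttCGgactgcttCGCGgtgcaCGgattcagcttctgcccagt

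The PTX3 promoter held 7 CG dinucleotides and 52.3% G or C, and the UNC5C promoter held 22 and 63.7%. The median of 15813 promoters of protein-coding genes was 22 CG dinucleotides and 62.7% G or C, and 21.7% of them had fewer CG than PTX3. Peaks covered 0 of the 300 PTX3 promoter bases in each of the 4 lists. The UNC5C promoter was covered over 0 bases by both marks under shControl and over all 300 bases by both marks under shStau2. On both strands 8 motifs were searched. The NF-kB pattern GGGANNNNCC, the binding site of the factor that drives inflammatory genes, matched PTX3 from 96 bases before the start (bases 155 to 164 of the printed run) and did not match UNC5C. That pattern was present in 29.1% of all promoters. A CCAAT box (CCAAT) matched both genes and 36.3% of all promoters, and an E-box (CANNTG) matched both and 64.5%. The letters of the other 5 motifs were not found in either window. The GATA box, read as AGATAA, was present in 7.55% of promoters. AP-1, read as TGANTCA, was present in 5.75%. The shares were 58.5% for the GC box, read as GGGCGG, and 9.64% for the TATA box, read as TATAAA. The ETS core, read as CCGGAAG, was present in 14.2%. The E-box and NF-kB patterns each matched on both strands at the same bases, though the letters read there differ between the strands. Matches of different motifs did not overlap. A match is a description of the letters only, and a missing one says only that those letters are not in this window.

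H3K4me3 was listed at 0 sites in the 4 windows under shControl and at 6 sites under shStau2. CES3, PTX3 and SPNS2 had 1 peak each and UNC5C had 3. Covered bases were 0 under shControl at each gene. Under shStau2 they were 526 at CES3, 738 at PTX3, 682 at SPNS2 and 2118 at UNC5C. All 6 peaks were new, meaning that they overlapped no shControl H3K4me3 peak by 1 base or more. Below, a gene that gained a mark had no peak of it in its window under shControl and 1 or more under shStau2. Of all protein-coding genes, 25.8% had a new H3K4me3 peak in the same kind of window and 0.766% had a lost one, listed under shControl only. Genes that gained H3K4me3 in this sense made up 5.84%, and 2.3% gained H3K4me2, which all 4 genes already had. The 4 genes were chosen on this contrast, so nothing is read from 4 of 4.

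**Figure D1:**
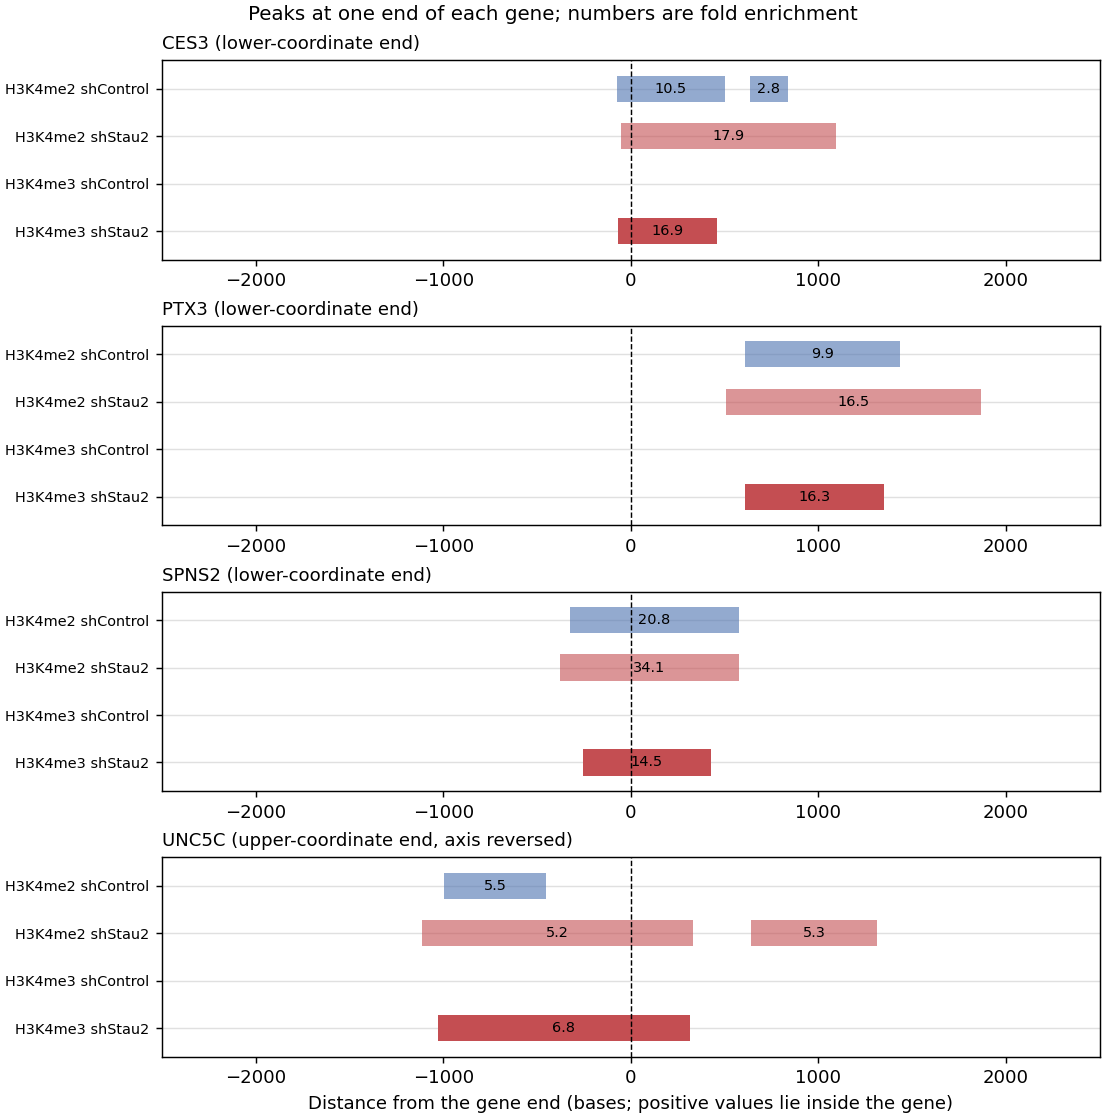
Peaks of both marks and both hairpins at 1 end of each gene, against distance from that end in bases, with positive values inside the gene. Each bar is a peak and its number is the deposited fold enrichment. The H3K4me3 track is empty under shControl at all 4 genes, and each shStau2 H3K4me3 bar lies over H3K4me2 bars of both hairpins.

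At CES3, the H3K4me3 peak spanned 66961198 to 66961723 across the lower-coordinate end of the gene. It had a pileup of 40.87, a fold enrichment of 16.9 and a −log10 q of 40.9. The nearest shControl H3K4me3 peak lay 25246 bases away. Under shControl the same place already carried H3K4me2, in a peak at 66961189 to 66961765, enriched 10.5-fold, which contains the whole H3K4me3 peak. Under shStau2 the H3K4me2 peak ran from 66961213 to 66962361 and was enriched 17.9-fold. That wider peak also took in the ground of a second, weak shControl H3K4me2 peak of 2.78-fold. The H3K4me3 summit lay 13 bases from the shControl H3K4me2 summit.

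Elsewhere in the CES3 window, the 2 hairpins listed different weak H3K4me2 peaks. At coordinates below the gene, shControl alone had peaks of 5.12-fold and 4.96-fold. Under shStau2 alone, peaks of 3.67-fold at the upper end of the gene and 5.0-fold above it were listed. Covered H3K4me2 bases were 1512 under shControl and 1863 under shStau2. New H3K4me2 peaks were found at 44.2% of genes and lost ones at 25.4%, and CES3 had both. A non-coding gene, LOC107984881, lies 7044 bases below CES3, and the shControl peak of 5.12-fold lay inside it. That peak also counted for the window of CES2, and the shStau2 peak of 5.0-fold also counted for CES4A.

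At PTX3, the H3K4me3 peak spanned 157437460 to 157438197, with a pileup of 39.36, a fold enrichment of 16.3 and a −log10 q of 39.5. It lay inside the gene and did not reach the annotated start, since it ran from 610 to 1347 bases downstream of it. The nearest shControl H3K4me3 peak was 260989 bases away. H3K4me2 was listed at the same place under both hairpins. The shControl peak ran from 157437460 to 157438283 and was enriched 9.91-fold, and the shStau2 peak ran from 157437355 to 157438716 and was enriched 16.5-fold. The H3K4me3 and shControl H3K4me2 peaks start at the same base. PTX3 had no other peak of either mark in its window, and H3K4me2 covered 824 bases under shControl and 1362 under shStau2.

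PTX3 lies within VEPH1, which encodes a pleckstrin homology domain protein. The VEPH1 window, at 157259742 to 157503605 with its flanks, held no H3K4me3 peak other than that at PTX3, and H3K4me2 covered 1721 bases of it under shControl and 3392 under shStau2. A peak inside both genes cannot be assigned to one of them from these files.

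At SPNS2, the H3K4me3 peak spanned 4498626 to 4499307 across the lower-coordinate end of the gene. Its pileup was 34.82, its fold enrichment 14.5 and its −log10 q 32.4. The nearest shControl H3K4me3 peak lay 54838 bases away. The H3K4me2 peak there was the strongest of the 4 genes under both hairpins, with a fold enrichment of 20.8 under shControl and 34.1 under shStau2. Its width hardly differed, at 902 and 958 bases, and both peaks end at 4499457. The non-coding gene SPNS2-AS1 lies 146 bases below SPNS2, so the peak reaches both and cannot be assigned to one.

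A further 3 H3K4me2 sites inside SPNS2 were listed under both hairpins, without H3K4me3. At the first, in order of coordinate, the shControl peak was enriched 4.92-fold and the shStau2 peak 5.29-fold. The values were 3.12 and 4.72 at the second, and 10.3 and 12.4 at the third, near the upper end. A shControl peak of 4.32-fold below the gene had no shStau2 counterpart. Covered H3K4me2 bases were 3049 under shControl and 2855 under shStau2, a difference of −194 that turned to 103 with flanks of 25 kb. MYBBP1A, which encodes a nucleolar MYB-binding protein and overlaps the upper end of SPNS2, had H3K4me3 in both lists, with fold enrichments of 24.2 and 51.5.

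**Figure D2:**
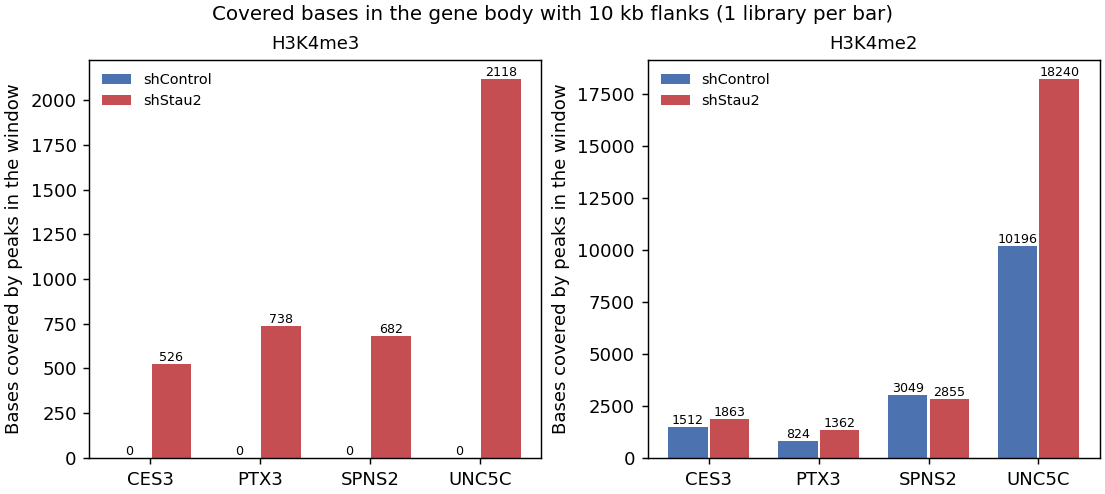
Bases covered by peaks in the window of each gene, with H3K4me3 on the left and H3K4me2 on the right; each bar is 1 library. H3K4me3 is 0 under shControl at all 4 genes, and H3K4me2 differs most at UNC5C, with 10196 and 18240 bases.

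At UNC5C, the H3K4me3 peak at the start was weaker and wider than those of the other 3 genes. It spanned 95548660 to 95550003, or 1344 bases, from position −1030 to 313 relative to the start. Its pileup was 18.16, its fold enrichment 6.84 and its −log10 q 10.9. The nearest shControl H3K4me3 peak lay 408786 bases away. Under shControl, the H3K4me2 peak lay wholly before the start, at 95549426 to 95549969, and was enriched 5.51-fold. Under shStau2 it ran from 95548641 to 95550087, across the start, and was enriched 5.18-fold. The pileup at the summit was 12.21 under shControl and 24.92 under shStau2, so the tag signal differed while its ratio to the local background did not differ much. The promoter bases printed above lie in the part listed under shStau2 alone. UNC5C-AS1, a non-coding gene, lies 175 bases above UNC5C, so the peak reaches both and cannot be assigned to one.

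The other 2 UNC5C H3K4me3 peaks lay deep in the gene. One, at 95176620 to 95177193 and 5.62-fold, had its summit 372118 bases downstream of the start. The other, with its summit 169243 bases downstream, lay at 95379647 to 95379846, was enriched 4.07-fold and was 200 bases wide, the smallest width in the lists, with a −log10 q of 3.45. Each lay inside a shStau2 H3K4me2 peak and overlapped shControl H3K4me2.

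H3K4me2 along UNC5C numbered 16 peaks and 10196 covered bases under shControl, and 25 peaks and 18240 bases under shStau2. All 16 shControl peaks overlapped a shStau2 peak, and 11 shStau2 peaks were new. The new peaks had fold enrichments from 3.89 to 6.79, with a median of 5.29, and widths from 200 to 913 bases. The 14 shared shStau2 peaks ranged from 2.17 to 13.9, with a median of 6.48, against 3.21 to 8.51, median 5.51, for the 16 shControl peaks. The new peaks held 5259 bases, and widening and merging of the shared peaks, from 10196 to 12981 bases, gave the remainder of the difference. The highest shared site, at 95255314 to 95256556, was 13.9-fold under shStau2 and 6.17-fold under shControl. BMPR1B, a bone morphogenetic protein receptor gene 4054 bases beyond the far end of UNC5C, had 6 H3K4me2 peaks under shControl and 10 under shStau2, 4 of them new. The windows overlap, and the new peak at 95162714 to 95163432 is counted for both genes. H3K4me3 at BMPR1B was listed under both hairpins, at 2 peaks each.

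**Figure D3:**
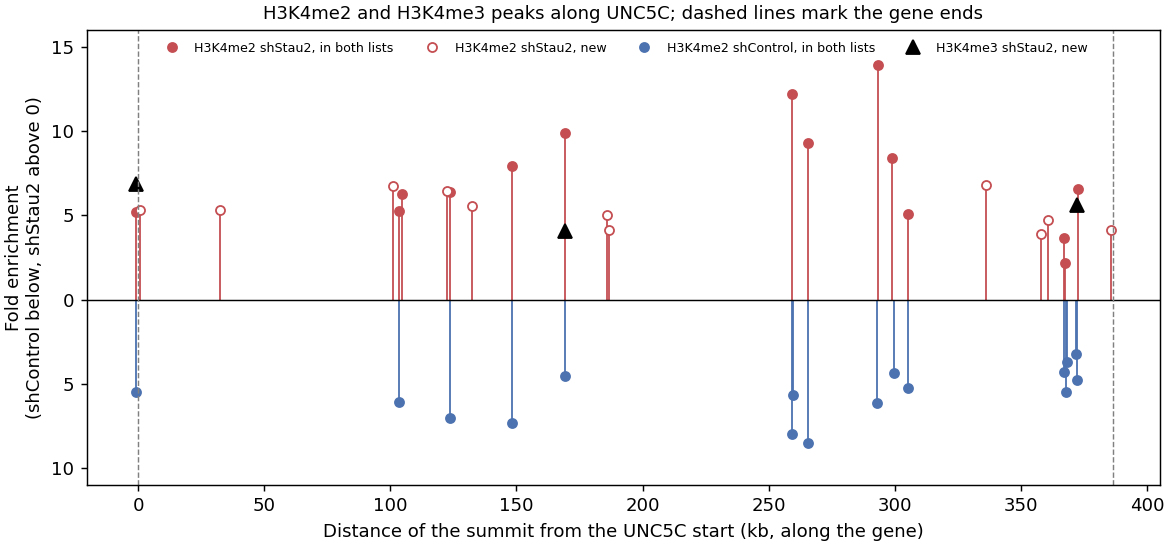
Fold enrichment of each peak in the UNC5C window against the distance of its summit from the UNC5C start in kb, with shStau2 above and shControl below 0. Open circles are the 11 new H3K4me2 peaks and triangles the 3 new H3K4me3 peaks; shared H3K4me2 sites stand above and below 0, and the open circles are spread over the gene.

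The ratio of H3K4me2 fold enrichment at the site of H3K4me3 was alike at 3 of the genes, but the pileups behind it were not. The ratio of fold enrichment, shStau2 over shControl, was 1.71 at CES3, 1.67 at PTX3 and 1.64 at SPNS2. Pileup at the H3K4me2 summit, shControl first, was 40.93 and 43.43 at CES3. It was 28.72 and 39.87 at PTX3, and 48.82 and 83.3 at SPNS2. The pileups thus lay close together at CES3 and furthest apart at SPNS2. Among the 40029 matched H3K4me2 peaks the median ratio per peak was 1.17, with 0.749 at the 10th and 1.81 at the 90th percentile, so these 3 lie in its upper part, at the percentiles 87.1, 85.5 and 84.2. The ratio was 0.940 at the UNC5C start, at the percentile 25.4. At its H3K4me3 peaks of 5.62-fold and 4.07-fold it was 1.36 and 2.17, at the percentiles 68.1 and 95.7. The shStau2 H3K4me2 peaks at CES3 and at the 5.62-fold site each overlapped a second shControl peak. They are therefore read against the matched peaks without being among them. The H3K4me2 and H3K4me3 libraries of a hairpin share their input, so the marks are not independent readings.

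New H3K4me3 on ground that already had H3K4me2 was the common case in the list. In the region where both H3K4me2 lists are whole, 86.1% (exact 95% interval 85.2 to 86.9, counting error only) of 6039 new H3K4me3 peaks overlapped shControl H3K4me2, as did all 6 peaks of the 4 genes. For new peaks of fold 10 or more the share was 92.5% (88.1 to 95.6) of 213, and for peaks that overlapped a shControl H3K4me3 peak it was 98.7% (98.5 to 98.9) of 13689. Among genes with no H3K4me3 in their window under shControl, 35.6% (33.5 to 37.8) of the 2006 with shControl H3K4me2 had H3K4me3 under shStau2. The share was 3.50% (2.72 to 4.43) of the 1887 without it. CES3, PTX3, SPNS2 and UNC5C all belong to the former group, and windows of neighbouring genes overlap, so genes are not independent. Both shares count whole windows rather than sites and were not split by gene length. Over all genes with no shControl H3K4me3, 13.2% of those under 10 kb had it under shStau2. For genes of 300 kb or more the value was 44.9%.

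Among all 8758 new H3K4me3 peaks, CES3 ranked 5, PTX3 9 and SPNS2 18 by fold enrichment, and the UNC5C start peak ranked 1796. The median of new peaks was 5.30-fold and the highest 19.1-fold, whereas peaks shared with shControl had a median of 33.1-fold. The CES3 peak thus stood at the percentile 51.7 of the whole shStau2 list, near its middle. Of 993 shStau2 peaks within 10% of its fold enrichment, 15 overlapped no shControl peak, or 1.51%. Around the UNC5C start peak that share was 71.7%. The UNC5C start peak instead stood out by width, since 0.445% of new peaks were wider. UNC5C was chosen for a wide increase of H3K4me2 around its ends. For its H3K4me3 peaks of 5.62-fold and 4.07-fold, 12.6% and 93.6% of new peaks were wider. Near gene ends, within 1 kb, 722 genes had a new peak and no shControl peak. Just after SPNS2 came PITPNM3 (14.2-fold), a phosphatidylinositol transfer protein family gene, and MYO10 (13.7-fold), an unconventional myosin gene, and UNC5C was at rank 203. By H3K4me2 within 2 kb of its ends, UNC5C went from 544 to 2836 bases, the second largest increase of 14728 genes.

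**Figure D4:**
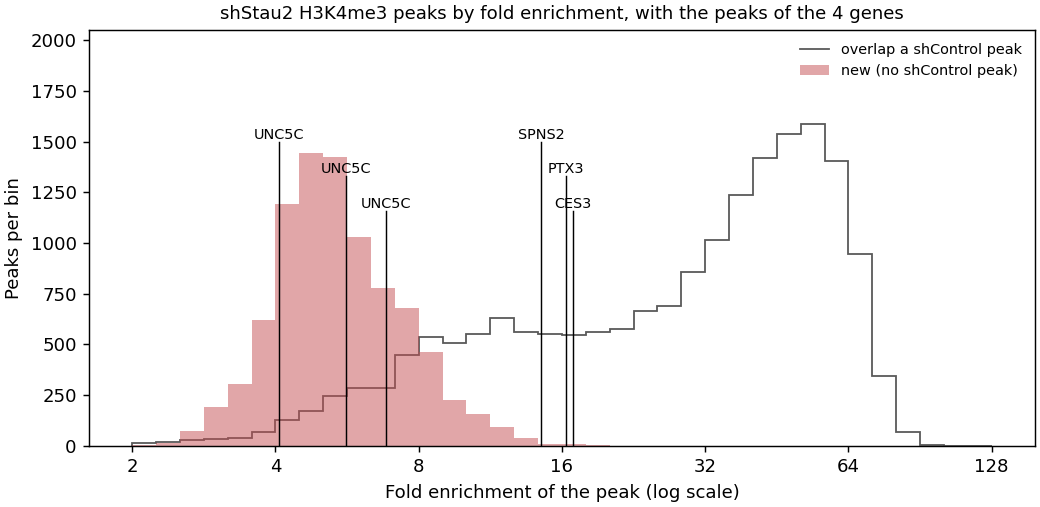
Number of shStau2 H3K4me3 peaks per bin of fold enrichment (log scale), for new peaks (filled) and peaks that overlap a shControl peak (line), with vertical lines at the 6 peaks of the 4 genes. The UNC5C lines lie within the bulk of the new peaks and the CES3, PTX3 and SPNS2 lines in their upper tail.

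The higher enrichment of the shStau2 H3K4me3 library, and its 13% redundant tags beside 7% under shControl, move with all of these gains. Divided by the ratio of 2.07, the fold enrichment was 8.19 at CES3, 7.89 at PTX3 and 7.0 at SPNS2. In the shControl list, 34.3%, 33.1% and 28.9% of peaks had lower values than these. The UNC5C start peak came to 3.31, with 2.00% of shControl peaks lower. With the shControl list held to 3.97-fold or more, which drops its lowest 5%, and the shStau2 list to 8.20-fold, the peaks of CES3, PTX3 and SPNS2 were still new and UNC5C had none. CES3, PTX3 and SPNS2 were chosen for high fold enrichment, so that they pass such a threshold was fixed by the choice. At that raised threshold 4.16% of genes had a new H3K4me3 peak. The part of the library difference in the H3K4me3 gains at the 4 genes was not tested.

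New peaks were more common in long genes. UNC5C is 386470 bases long, and of 771 genes of 300 kb or more 52.1% had a new H3K4me3 peak. The share was 18.4% for genes under 10 kb, the class of PTX3, 21.3% for 10 to 30 kb, that of CES3, and 27.9% for 30 to 100 kb, that of SPNS2. For H3K4me2, 14 of 512 genes of 300 kb or more, UNC5C among them, had 11 or more new peaks, and the median was 2. By added H3K4me2 bases in its window, 6 of 14728 genes were above UNC5C. For H3K4me3, 80 of those 771 genes, UNC5C among them, had 3 or more new peaks. Over the whole window, the added H3K4me2 bases stood at the percentiles 51.3 for CES3, 62.6 for PTX3 and 8.93 for SPNS2, which is near the low end. Within 2 kb of the gene ends, the same measure ranked CES3 at 879, PTX3 at 1021 and SPNS2 at 7205 of 14728 genes. Added H3K4me3 bases within 2 kb ranked UNC5C at 101, PTX3 at 1163, SPNS2 at 1528 and CES3 at 3091 of 19974 genes. More covered bases under shStau2 were found at 77.2% of genes for H3K4me3 and 72.5% for H3K4me2.

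**Figure D5:**
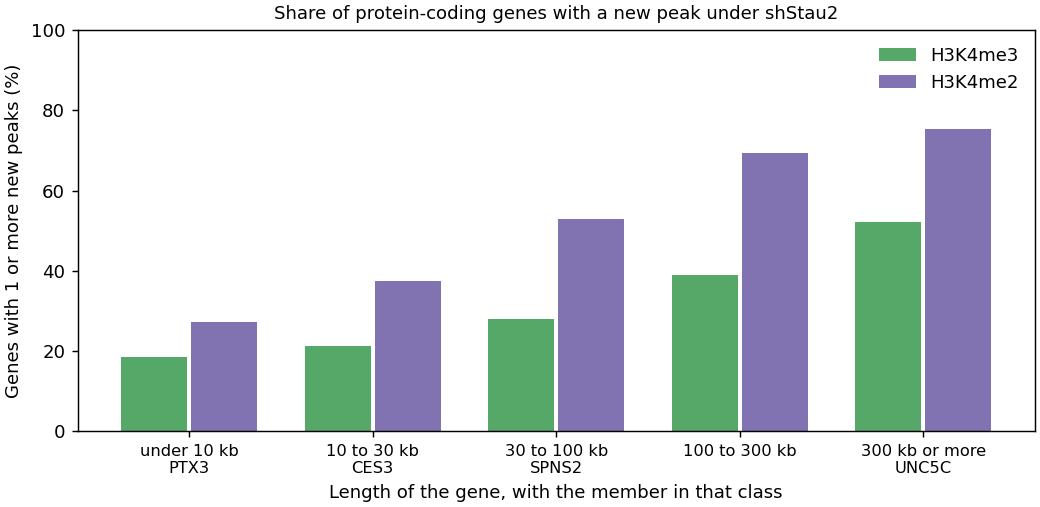
Share of protein-coding genes with 1 or more new peaks under shStau2 by gene length, for H3K4me3 and H3K4me2, with the studied gene of each class named under it. For H3K4me3 the bars run from 18.4% for the shortest genes to 52.1% for the longest, and for H3K4me2 from 27.4% to 75.4%.

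Relatives of the 4 genes were read from lists of their families and pathways. A gene counts as marked where its window held a peak, which can belong to a neighbouring gene. Among 9 carboxylesterase and related genes, H3K4me3 was present under both hairpins at 5, gained at 1 and absent from both lists at 3. The gained gene is CES3, which was chosen for its gain. Of all 19974 genes, 14434 had it under both hairpins, 5.84% gained it and 4365 had it in neither list. The median increase was 487 bases against 416 over all genes. CES3 sits between CES2 and CES4A on chromosome 16, and both neighbours were marked under both hairpins. CES2, an intestinal and hepatic carboxylesterase, had 3463 covered H3K4me3 bases under shControl and 4122 under shStau2, with 1 new peak of 6.64-fold. CES4A had 1284 and 1812, and CES5A, a further family member, 624 and 910.

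Of 19 pentraxins and PTX3 partners, H3K4me3 was shared by both hairpins at 5, gained at 2 and unlisted at 12, with a median increase of 0 bases. Over all genes, 14434 of 19974 were shared, 5.84% gained and 4365 unlisted. The second gained gene was NPTX1, a neuronal pentraxin, with 2 new peaks of up to 7.37-fold and 670 covered bases. The short pentraxins CRP and APCS had none. Of 10 genes of the receptors and factors that induce PTX3, 9 were marked by H3K4me3 under both hairpins and 0 gained it. These stand beside the 14434 of 19974 and the 5.84% above. More covered bases under shStau2 were found at 9, as at 77.2% of all genes. IL1R1, an interleukin 1 receptor, went from 1067 to 2480 bases, and TLR2, a Toll-like receptor, from 482 to 927.

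Of 19 sphingosine 1-phosphate genes, 14 were marked by H3K4me3 under both hairpins, 3 gained it and it was unlisted at 2. Over all 19974 genes, 14434 were marked under both, 5.84% gained it and 4365 were unlisted. The median increase was 406 bases in the list and 416 over all genes. Beside SPNS2, PLPP3, a lipid phosphatase gene, gained 1 peak of 6.65-fold and MFSD2A, a lysolipid transporter gene, gained 2 of up to 6.64-fold. The enzymes that make the lipid, SPHK1 and SPHK2, were marked under both hairpins. So was MFSD2B, the exporter of red cells and platelets, with 1511 and 1908 bases, and so were the receptors S1PR1 to S1PR5. H3K4me2 was present at PLPP3 and MFSD2A under shControl. PLPP3 had 3 new H3K4me2 peaks and 0 lost, and MFSD2A 0 new and 1 lost. Of 16 list genes compared, 6 had a new H3K4me2 peak and 6 a lost one, beside 44.2% and 25.4% of all genes. Covered H3K4me2 bases were more at 9 and fewer at 7, and more at 72.5% of all genes. SGPP2 and SPNS3 had H3K4me2 under shControl only, as did 75 of 14728 genes. The SPNS3 peak is the one of 4.32-fold below SPNS2.

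Of 25 netrin, UNC5 and guidance genes, H3K4me3 was shared by both hairpins at 11, gained at 7 and unlisted at 7. Over all 19974 genes, 14434 were shared and 4365 unlisted. The median increase was 286 bases. A new peak was found at 12 of the 25, beside 25.8% of all genes and 52.1% of those of 300 kb or more. The 7 gained stand beside 5.84% of all genes and 105 of the 771 genes of 300 kb or more. Only a gene without a shControl peak can gain one. Of such genes in the list, 7 gained H3K4me3 and 7 did not. Of the 234 such genes of 300 kb or more, 105 gained it, or 44.9%. The 7 gained in the list include UNC5C, which was chosen from these peak lists. The list holds long genes such as UNC5D (561066 bases) and ROBO2 (1743290 bases). Among the UNC5 receptors, UNC5A and UNC5B were marked under both hairpins, and UNC5D gained 1 peak of 8.91-fold over 312 bases. FLRT1, of a family of adhesion proteins that bind UNC5 receptors, gained 2 peaks of up to 8.35-fold over 1942 bases. NTNG2, a netrin G gene, and RGMB, a repulsive guidance gene, had new peaks of 8.20-fold and 7.74-fold beside peaks in both lists. RGMA had a peak of 4.75-fold under shControl alone, beside a new one of 3.36-fold. For H3K4me2, 11 of 19 had a new peak and 5 a lost one, beside 44.2% and 25.4% of all genes. Among genes of 300 kb or more these shares were 75.4% and 45.9%. ROBO2, a receptor for SLIT proteins, had 11 new H3K4me2 peaks as UNC5C did, and 2 lost. UNC5B went the other way, from 19 peaks to 14, with 5 lost and 0 new.

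The genes closest to each of the 4 were sought by the distance of log2(covered bases + 100) over the 4 libraries, among 14724 to 14726 genes. The nearest to CES3 was SPON1 at 0.12, followed by CASP14 and TUB. KIAA1549L was nearest to PTX3 at 0.17, followed by TBC1D3B, a member of a multicopy family whose reads may be shared, and PLPPR4. TEKT5 was nearest to SPNS2 at 0.13, followed by CLCA1 and SULT2A1. The closest to UNC5C, NPAS3, was further off at 0.93, with 1833 H3K4me3 bases gained from 0 and 17615 and 25015 H3K4me2 bases. ZBTB38 and SKAP1 followed. The median distance of all genes was between 5.12 and 5.65. Likeness here means similar covered lengths only.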

How the data were processed

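Alignment used Bowtie2 (version not given) and the hg38 build, per the submitters' processing notes. Per the file headers, peaks were called in each library with MACS2 version 2.1.2 against the input of the same hairpin, at a q-value of 0.05, without model building, with 1 tag kept per position and the larger of ChIP and input scaled to the smaller. The deposited lists give pileup signal, fold enrichment as a ratio, and −log10 p-value and q-value for each peak. These are the authors' values.

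Both H3K4me2 lists stop at 65507 peaks, so H3K4me2 was compared only where both are whole, which is 16 chromosomes and chromosome 4 to position 185623562. Gene bodies came from RefSeq GRCh38.p14, the same build, and all listed symbols were matched. Overlap of 1 base counted as shared, and intervals of shares are exact 95% binomial ones (Clopper-Pearson, scipy 1.17.1). With 1 library per group no test was run. Python 3.11.15, numpy 2.4.6 and pandas 2.3.3 were used, and overlap code was tested on planted peaks.

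The members and lists were chosen with earlier results of these data known. Named genes were the 4 members, genes overlapping their windows, the 3 nearest by pattern, markers, and up to 4 new and 4 lost genes of each list by fold enrichment. Other list members, and PITPNM3 and MYO10, were named after their values were seen. Flanks, thresholds, equal list lengths, merging and overlap rules were varied.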

Additional observations from a re-analysis of the deposited data

How the results depend on the processing

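With 1 library per group no library could be left out, and values describe these libraries. New H3K4me3 peaks at the 4 genes numbered 6, and 3 at the raised threshold, with or without the shControl limit, where the added bases fell from 4064 to 1946. New H3K4me2 peaks numbered 13, 5 with a −log10 q of 10 or more and 20 with 50% reciprocal overlap. Of all genes, 5145 had a new H3K4me3 peak, 3220 with gene bodies alone, 2600 with equal numbers of peaks, 831 at the raised threshold and 632 with the shStau2 list alone raised (chosen after the data were seen). For H3K4me2 it was 6506, and 3750 with a −log10 q of 10 or more. Genes of the 5 lists with a new H3K4me3 peak numbered 22, 14 with equal numbers of peaks and 5 at either raised threshold. The 22 were 2 of 9 carboxylesterase genes, 2 of 19 pentraxins and partners and 5 of 19 sphingosine 1-phosphate genes. The remainder were 12 of 25 netrin and UNC5 genes and 1 of 10 inducers of PTX3. Of all genes 25.8% had a new H3K4me3 peak, and 4.16% at the raised threshold. The list counts include the 4 chosen genes, of which 3 had a new peak at either raised threshold and all 4 otherwise. The H3K4me2 difference at SPNS2 of −194 bases turned to 103 with flanks of 25 kb, 372 with a fold enrichment of 5 or more and 318 at the raised threshold. The cause was not tested. No paired analysis was possible because each group has 1 library.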
